A study of Mus musculus with 10 samples.

Results

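The 9 genes described here, Ager, Aqp5, Hopx, Pdpn, Rtkn2, Clic5, Akap5, Emp2 and Gprc5a, mark the alveolar type 1 cell in the mouse lung. They were chosen by name, and their rows were found among the 47333 genes of the count table through the mouse Ensembl identifiers of GENCODE M21. All 9 were present and all 9 passed the filter on low counts, which left 18024 genes for testing. The right middle lobe was taken at an age of 12 weeks from naïve C57BL/6J mice that had no treatment, 5 labelled KO for Bpifb1 (1 male, 4 females) and 5 WT (2 males, 3 females). Bpifb1 codes for a protein that airway epithelium secretes, and the comparison asked which genes change when it is lost. The labels give neither the design of the KO allele nor whether the WT mice were littermates, and both genotypes shared cages. Whole lobes were used, so each value is a mixture of all cells of the piece.

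Type 1 cells are very thin, flat epithelial cells that cover most of the gas exchange surface and lie against the capillaries. They share the alveolus with the cuboidal type 2 cells, which make surfactant and can give rise to type 1 cells. The 9 genes have different jobs in the type 1 cell. Ager encodes RAGE, a membrane receptor found at very high levels on its basal side. Aqp5 encodes a water channel of its apical membrane, and Pdpn a mucin-type membrane glycoprotein long used to mark the cell. Hopx encodes a small homeodomain protein that does not itself bind DNA. Rtkn2 is used as a marker of the cell, Clic5 encodes a protein linked to the actin cytoskeleton, and Akap5 a scaffold that anchors protein kinase A. Emp2 encodes a tetraspan membrane protein and Gprc5a an orphan receptor.

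Totals ran from 21357450 to 28321313 estimated counts per mouse. Bpifb1 itself had 5 to 32 counts per KO mouse and 647 to 2059 per WT mouse, so each library matched its genotype label. KO replicate 5, labelled female, had 1.78 CPM (depth-scaled counts, with TMM factors) of Xist, the RNA of the inactive X chromosome, where the other females had 273 to 407 CPM. It is shown with its label. The calls of the 9 genes, the gene lists between the genotypes, the named sex differences and the named correlations are also given without it, and the levels, sums and nearest genes are not.

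All 9 genes were abundant. The lowest count of any of them in any mouse was 3064, for Pdpn, and together they took 0.643% to 0.727% of the counts of a library. Per kilobase of exon, Ager had by far the highest level, 1068 ± 94.4 CPM per kb (SD, n = 10 mice). Hopx followed with 424 ± 38.3 CPM per kb and Gprc5a with 328 ± 25.8 CPM per kb (SD, n = 10 each). Emp2 (135 ± 5.98 CPM per kb), Aqp5 (131 ± 15.2 CPM per kb) and Clic5 (113 ± 11.4 CPM per kb) came next. The ranges of Emp2 and Aqp5 overlapped, as did those of Aqp5 and Clic5, so the order of these neighbours was not distinct. Pdpn stood at 81.4 ± 2.46 CPM per kb, with a range over mice that overlapped no other gene. Akap5 (57.7 ± 5.15 CPM per kb) and Rtkn2 (44.3 ± 5.18 CPM per kb) were lowest, and their ranges over mice met. The order was the same when the length of the longest transcript was used.

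The genes also differed in how far they varied between mice. Pdpn and Emp2 were the steadiest, with a highest mouse 1.1 and 1.13 times the lowest. In Aqp5 this ratio was 1.45, the largest of the 9. The SD of log2 CPM within genotypes was 0.046 for Pdpn, 0.063 for Emp2 and 0.092 for Hopx. It was 0.154 for Clic5 and 0.175 for Rtkn2. Over the 11021 tested genes with a mean of at least 10 CPM its median was 0.108, and 4 of the 9 genes were below it. This SD does not remove differences between the sexes. With genotype and sex in the edgeR fit, the biological coefficient of variation between mice was 6.6% for Rtkn2. The same quantity was 6% for Pdpn, 6.5% for Emp2, 7.21% for Hopx and 8.88% for Clic5. The fit draws this quantity toward that of other genes of like level, so it is not the spread of each gene alone.

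**Figure D1:**
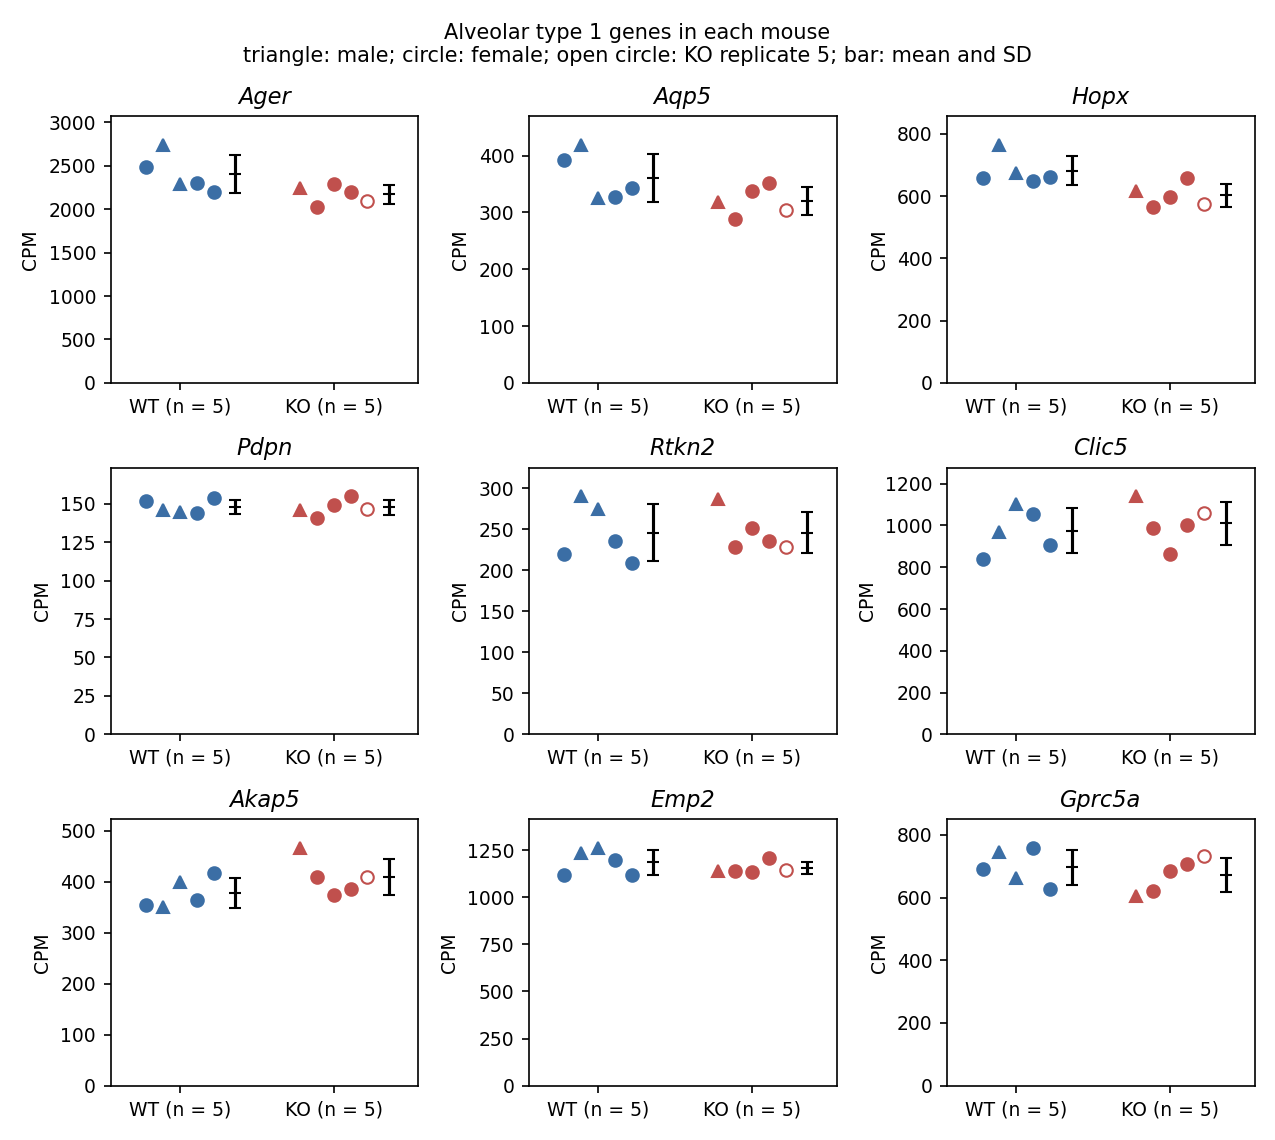
CPM of each of the 9 genes (vertical axes from 0) in 5 WT and 5 KO mice, in replicate order within each group, with the mean and SD beside the points. The KO and WT ranges overlap in all 9 genes, and the 3 mice labelled male (triangles) are the 3 highest mice for Rtkn2.

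Promoter sequences are shown for Ager, Hopx and Akap5, because their correlations between mice are described further on, positive for Ager and Hopx and negative for Ager and Akap5, the latter not past adjustment. RefSeq (GRCm38.p6) held promoter windows for 7 of the 9 genes, with 8 windows in all, but not for Rtkn2 and Gprc5a. The sequences are the 250 bases before the annotated start, 5′ to 3′ on the strand of the gene. They lie at chr17:34597600-34597849 (plus strand) for Ager, chr5:77115124-77115373 (minus strand) for Hopx and chr12:76324641-76324890 (plus strand) for Akap5. Capitals mark matches on either strand to the GC box GGGCGG or to the CCAAT box.
Ager: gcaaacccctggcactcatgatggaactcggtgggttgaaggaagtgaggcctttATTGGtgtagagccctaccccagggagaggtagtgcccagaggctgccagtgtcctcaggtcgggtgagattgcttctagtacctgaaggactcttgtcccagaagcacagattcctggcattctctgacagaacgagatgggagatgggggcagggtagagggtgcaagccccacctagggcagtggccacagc
Hopx: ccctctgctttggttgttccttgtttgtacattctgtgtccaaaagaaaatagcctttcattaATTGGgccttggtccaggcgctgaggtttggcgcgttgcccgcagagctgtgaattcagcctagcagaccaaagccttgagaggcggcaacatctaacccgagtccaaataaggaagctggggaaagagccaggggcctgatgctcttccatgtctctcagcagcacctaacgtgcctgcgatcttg
Akap5: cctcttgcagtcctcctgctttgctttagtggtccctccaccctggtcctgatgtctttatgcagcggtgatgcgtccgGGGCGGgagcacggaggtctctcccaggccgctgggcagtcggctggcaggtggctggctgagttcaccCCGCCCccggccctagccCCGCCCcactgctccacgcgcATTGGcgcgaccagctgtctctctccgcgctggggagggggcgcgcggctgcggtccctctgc
The Ager and Hopx sequences each held 1 CCAAT match and no GC box, while that of Akap5 held 1 CCAAT match and 3 GC boxes. Over the 300-base windows of the 7 genes, which reach past the start, 5 of 8 held a GC box, against 35.7% of all 32851 windows of this length. CCAAT was found in 4 of 8 (37.4% of all windows). The TEAD motif GGAATG was found in 0 of 8 (14.7% of all) and TATAAA in 0 of 8 (13.6% of all). The NKX2 motif CACTTNA was found in 1 of 8, the second Hopx window (11.5% of all). These are letter matches only, and the motifs do not overlap one another in the sequences shown.

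Loss of Bpifb1 moved none of the 9 genes past the threshold. In the edgeR quasi-likelihood test with sex as a covariate, 0 of 9 passed an adjusted p under 0.05, where 0.0222% of all tested genes did (0.0166% lower and 0.00555% higher in KO). At an unadjusted p under 0.05 stood 1 of 9, Hopx, where 17% of all tested genes did, and the DESeq2 Wald test and limma-voom also called 0 of 9. The KO and WT ranges overlapped in all 9 genes, while they did not overlap in 1.88% of all tested genes. The median log2 fold change of the 9 genes was -0.02, beside 0.00 over all tested genes. The median size of the difference was 0.09 for the 9 genes and 0.10 for all tested genes. In bulk RNA, fewer type 1 cells and less RNA per type 1 cell cannot be told apart.

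Ager, Aqp5 and Hopx had the most negative differences, none of them called. Hopx (ENSMUSG00000059325, chromosome 5, 77086988 to 77115121, minus strand) measured 616, 566, 599, 659.7 and 574 CPM in KO replicates 1 to 5. In WT replicates 1 to 5 it measured 659, 765, 675, 649.5 and 662 CPM. KO replicate 4 reached into the WT range, and the other 4 KO mice lay below all WT mice. The log2 fold change was -0.16 (SE 0.06, 95% interval -0.29 to -0.03, adjusted p 0.2216 by edgeR). Hopx shares 412 exon bases with Hopxos, an antisense gene with 2170 to 3100 counts per mouse, and whether strand was used in counting is not given in the sources used here, so its value is uncertain.

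Ager (ENSMUSG00000015452, chromosome 17, 34597862 to 34600936, plus strand) measured 2245, 2026, 2294, 2204 and 2099 CPM in KO replicates 1 to 5. In WT replicates 1 to 5 it measured 2488, 2742, 2286, 2297 and 2195 CPM. The highest values were those of WT replicates 1 and 2, and the other WT mice lay within or close to the KO range. The log2 fold change was -0.12 (SE 0.07, 95% interval -0.27 to 0.02, adjusted p 0.3611 by edgeR). Aqp5 (ENSMUSG00000044217, chromosome 15, 99590782 to 99594829, plus strand) measured 318, 289, 338, 352 and 304 CPM in KO replicates 1 to 5. In WT replicates 1 to 5 it measured 393, 419, 325, 327 and 343 CPM. WT replicates 1 and 2 were again the highest, and the other WT mice lay within the KO range. Its log2 fold change was -0.17 (SE 0.08, 95% interval -0.35 to 0.01, adjusted p 0.3209 by edgeR).

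Akap5, Clic5 and Rtkn2 had positive differences, again with no call. Akap5 (ENSMUSG00000021057, chromosome 12, 76324891 to 76334153, plus strand) measured 467, 410.2, 375, 386 and 409 CPM in KO replicates 1 to 5. In WT replicates 1 to 5 it measured 355, 351, 400.4, 365 and 417 CPM. KO replicate 1 was the highest mouse, and the remaining KO mice lay among the WT values. The log2 fold change was 0.13 (SE 0.07, 95% interval -0.01 to 0.28, adjusted p 0.3367 by edgeR). Clic5 (ENSMUSG00000023959, chromosome 17, 44188584 to 44280172, plus strand) ranged from 862 to 1140 CPM in KO and from 841 to 1104 CPM in WT mice, with a log2 fold change of 0.09 (95% interval -0.08 to 0.25, adjusted p 0.5862 by edgeR). Rtkn2 had a log2 fold change of 0.07 between the genotypes (95% interval -0.04 to 0.18, adjusted p 0.5086 by edgeR).

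The remaining membrane protein genes were close to level. Pdpn (ENSMUSG00000028583, chromosome 4, 143267431 to 143299564, minus strand) was 148 ± 5.1 CPM in the KO group against 148 ± 4.31 CPM in the WT group (SD over 5 mice per group). Its interval reached from -7.4% to 6.1%, the narrowest of the 9. Emp2 (ENSMUSG00000022505, chromosome 16, 10281749 to 10313968, minus strand) was 1154 ± 30.9 CPM in the KO group against 1186 ± 66.6 CPM in the WT group (SD over 5 mice per group), with an interval from -9.2% to 6.5%. Gprc5a (ENSMUSG00000046733, chromosome 6, 135065651 to 135084709, plus strand) was 671 ± 54.7 CPM in the KO group against 697 ± 55.6 CPM in the WT group (SD over 5 mice per group), with an interval from -14.3% to 6.3%. Over the 9 genes the lowest lower end was -21.3% (Aqp5) and the highest upper end was 21.4% (Akap5). Larger differences between the genotypes lie outside these intervals. Without KO replicate 5 the call was again 0 of 9, and the log2 fold changes of Hopx, Ager, Aqp5 and Akap5 were -0.15, -0.12, -0.15 and 0.13.

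**Figure D2:**
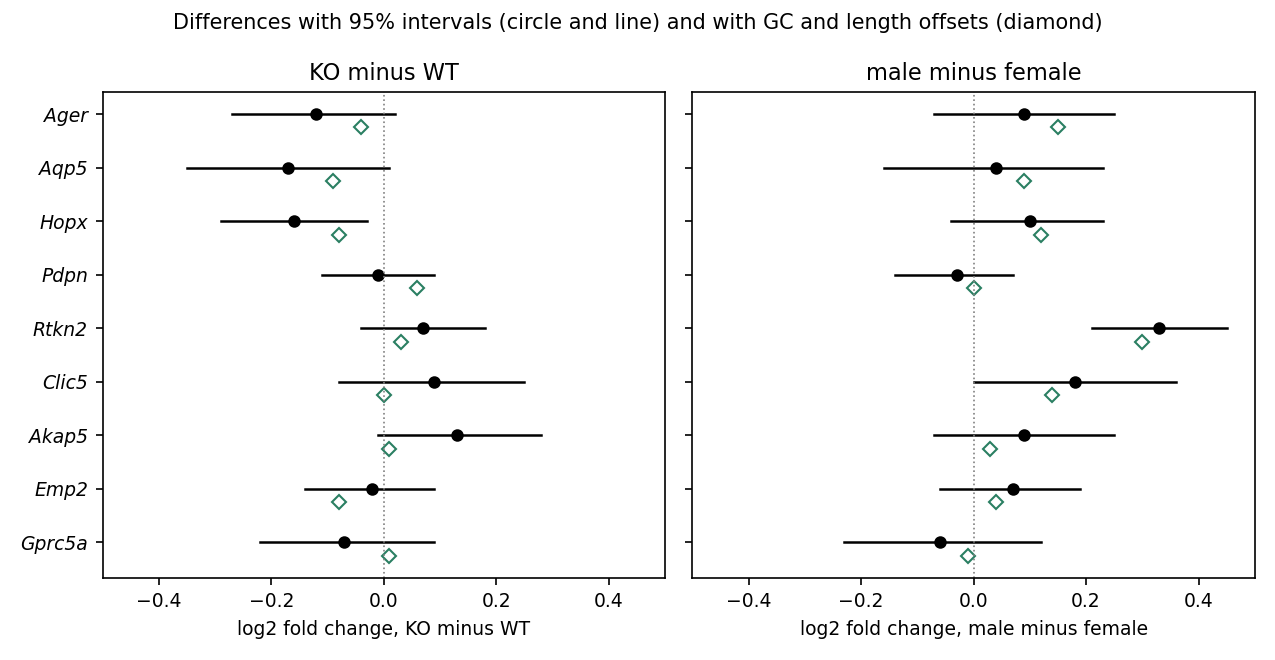
Log2 fold changes of the 9 genes between KO and WT mice (left) and between males and females (right), with 95% intervals from edgeR (circles and lines) and the values with offsets for GC content and transcript length (diamonds). With the offsets the KO differences of Ager, Aqp5, Hopx, Clic5 and Akap5 lie nearer to 0, those of Pdpn (0.06) and Emp2 (-0.08) lie farther from it, and Rtkn2 between the sexes stays at 0.30.

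The sign of these differences went with transcript length and with GC content. The 3 genes with a positive difference have longest transcripts of 4.43 kb (Rtkn2), 5.86 kb (Clic5) and 6.69 kb (Akap5). Among the 6 with a negative one, 5 have transcripts of 1.26 to 2.08 kb, and Emp2, with 5.26 kb, differed by -0.02. The 3 positive genes also have the lowest GC content of the 9 (44% to 45.8%), and the other 6 have 46.4% to 64%. Length and GC content cannot be told apart in so few genes. Both trends ran through all tested genes. In 4 equal groups by GC content, from lowest to highest, the median log2 fold change was 0.058, 0.006, -0.025 and -0.04. The median log2 fold change was -0.086 in the shortest of 4 equal groups of genes by transcript length, -0.043 and 0.007 in the next and 0.094 in the longest. As a value per mouse, the longest group minus the shortest, it was 0.077 ± 0.08 in KO and -0.089 ± 0.132 in WT mice (SD, n = 5 each), with ranges that overlapped (exact permutation p 0.0476, for GC content 0.2143, before adjustment over these 2 tests). This value was not planned and comes from the same mice as the trend, so its p is a description only. WT replicates 1 and 2, the mice with the most Ager and Aqp5, had the lowest values, -0.257 and -0.168. With offsets that remove the trends with length and GC content from each mouse, a setting chosen after this was seen, the log2 fold change was -0.08 for Hopx (SE 0.05, adjusted p 0.5215 by edgeR), -0.04 for Ager, -0.09 for Aqp5 and 0.01 for Akap5. For Emp2 it moved away from 0 to -0.08, and for Pdpn to 0.06. With these offsets 0 of 9 genes had an unadjusted p under 0.05, where 12.5% of all tested genes did.

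**Figure D3:**
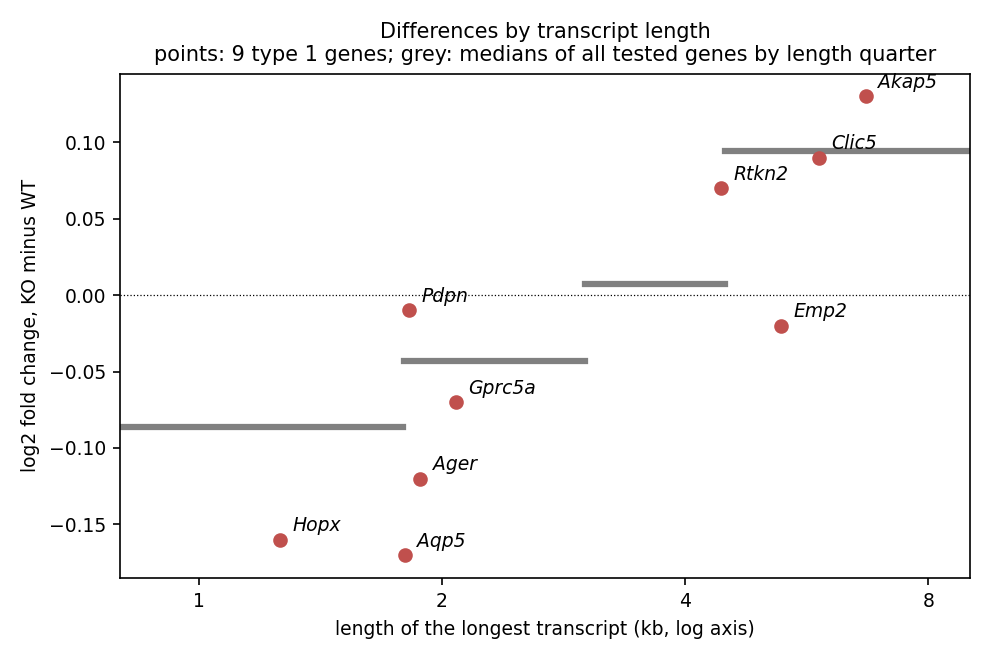
Log2 fold change between KO and WT mice against the length of the longest transcript (kb, log axis) for the 9 genes, with the medians of all tested genes in 4 equal groups by length as grey lines (the outer groups extend past the axis). Genes with short transcripts lie below 0 and the 3 highest points, Akap5, Clic5 and Rtkn2, have long ones, with Emp2 as a long transcript near 0.

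Between the sexes, Rtkn2 alone of the 9 passed the threshold. It was higher in males (1 of 9 genes called, where 0.583% of all tested genes were, 0.449% higher and 0.133% lower in males). Rtkn2 (ENSMUSG00000037846, chromosome 10, 67979570 to 68059740, plus strand) measured 287 CPM in the KO male and 290.1 and 275 CPM in the WT males. In the 7 females it ran from 209 to 251 CPM with a median of 228 CPM. By label, all males lay above all females, in both genotypes, as was the case for 4.81% of all tested genes in either direction. KO replicate 5, labelled female but with 1.78 CPM of Xist, had 228 CPM of Rtkn2, so this separation depends on its label. A fit with that mouse as a male was not run. The log2 fold change was 0.33 (SE 0.06, 95% interval 0.21 to 0.45, adjusted p 0.01972 by edgeR), a level 25.4% higher in males. The exact permutation p of 0.0083 is the smallest that 3 males among 10 mice allow, and it takes KO replicate 5 as female.

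Rtkn2 stayed past the threshold with the GC and length offsets (log2 fold change 0.30, adjusted p 0.01638 by edgeR) and without KO replicate 5 (0.32, adjusted p 0.03392 by edgeR). It did not pass with no genotype covariate (adjusted p 0.05511 by edgeR), nor without KO replicate 1 (0.1186), KO replicate 2 (0.05014) or WT replicate 2 (0.07081), with log2 fold changes from 0.30 to 0.35 when single mice were left out. Rtkn2 shares 216 exon bases with the antisense gene Gm16212, which had 218 to 384 counts per mouse against 4859 to 7299 for Rtkn2. The cochaperone gene Hspa4l was named because earlier results of these data had shown it to differ most clearly between the sexes. Its higher level in males was thus known in advance and is no separate support for the Rtkn2 difference. Its lowest male value was 95.2 CPM and its highest 137 CPM, where females lay between 62.4 and 78.3 CPM (log2 fold change 0.79, and 0.78 without KO replicate 5), and its part in the Rtkn2 difference was not tested.

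For the other 8 genes the male and female ranges overlapped. Clic5 was at an unadjusted p under 0.05, as were 15.1% of all tested genes (7.33% higher and 7.79% lower in males), with 1072 ± 89.5 CPM in 3 males and 959 ± 89.4 CPM in 7 females (SD; log2 fold change 0.18, SE 0.08, adjusted p 0.3211 by edgeR). Without KO replicate 5 the log2 fold change of Clic5 was 0.20 (adjusted p 0.3167 by edgeR). Of the 9 genes 7 had a positive difference and 2, Pdpn and Gprc5a, a negative one. The median log2 fold change was 0.09, beside -0.01 over all tested genes. Their summed level was 6965 to 7663 CPM in males and 6412 to 7028 CPM in females.

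Across the 10 mice the 9 genes did not vary as 1 block. Of their 36 pairs, 23 had a positive and 13 a negative Pearson's r of log2 CPM, with a median of 0.20. After Benjamini-Hochberg adjustment over the pairs, 3 passed a permutation p under 0.05 for r and 0 for Spearman's rho. These 3 pairs joined Ager, Aqp5 and Hopx. For Ager and Aqp5, r was 0.92 (permutation p 0.00028, adjusted 0.0101) and rho 0.70 (permutation p 0.0298, adjusted 0.25). Without the 2 mice farthest from the median of Ager, r was 0.76. For Ager and Hopx, r was 0.84 (permutation p 0.00303, adjusted 0.0364) and rho 0.53 (permutation p 0.123, adjusted 0.443), and r dropped to 0.46 without the 2 farthest mice. Leaving these mice out also narrows the range of Ager, so the drop cannot show how far the relation rests on them. For Aqp5 and Hopx, r was 0.84 (permutation p 0.00219, adjusted 0.0364) and rho 0.72 (permutation p 0.0227, adjusted 0.25), with an r of 0.76 without the 2 farthest mice. With genotype and sex removed from each gene the 3 values of r were 0.92, 0.66 and 0.82, and without KO replicate 5 they were 0.91, 0.82 and 0.82.

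Akap5 ran against this group. With Ager its r was -0.65 (permutation p 0.0429, adjusted 0.257) and its rho -0.82 (permutation p 0.00545, adjusted 0.196), and without the 2 mice farthest from the median of Ager r was -0.57. With the GC and length offsets, r between Ager and Akap5 became 0.02, while it was 0.77 between Ager and Aqp5 and 0.74 between Ager and Hopx. Ager and Rtkn2 went from an r of 0.47 (0.44 without KO replicate 5) to one of 0.87. Akap5 and Gprc5a kept opposite signs, with an r of -0.76 (permutation p 0.0109, adjusted 0.0981) as measured, a rho of -0.77 (permutation p 0.0126, adjusted 0.227), an r of -0.56 without the 2 mice farthest from the median of Akap5 and one of -0.73 with the offsets. Without KO replicate 5, r was -0.64 for Ager and Akap5 and -0.87 for Akap5 and Gprc5a.

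**Figure D4:**
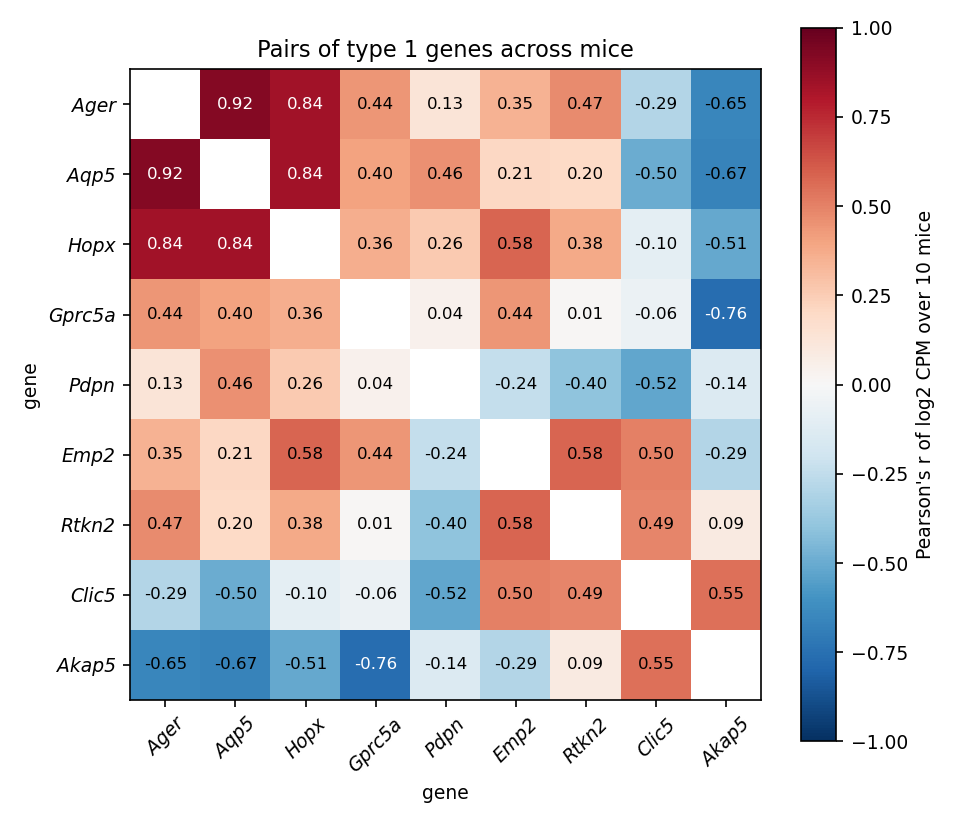
Pearson's r of log2 CPM over 10 mice for each of the 36 pairs of the 9 genes (colour from -1 to 1, values printed). Ager, Aqp5 and Hopx form a block with r from 0.84 to 0.92, and Akap5 has negative values with most genes, down to -0.76 with Gprc5a.

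The gene most like each member over the 10 mice was searched among 16261 tested genes with a mean of at least 1 CPM. With so many genes and 10 mice that share their libraries, high values of r are found for any gene, and they are given as a description. The nearest genes were Ube2r2 for Ager (r 0.987), Emc6 for Aqp5 (0.972), Gm15417 for Hopx (0.973), Fam92b for Pdpn (0.943) and Syvn1 for Rtkn2 (0.968). They were Tfdp2 for Clic5 (r 0.981), Chml for Akap5 (0.956), Parvb for Emp2 (0.950) and Serinc2 for Gprc5a (0.925). Of the 22 further type 1 genes, none was the nearest gene of a member. As only the top gene of 16261 was kept for each member, this cannot show whether these genes vary with the members.

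A longer list of type 1 genes was then compared between the genotypes. Of 22 such genes, all tested, 0 were called by edgeR and 1 by DESeq2, which called 1.92% of all tested genes. At an unadjusted p under 0.05 in edgeR stood 5 of 22, 3 higher and 2 lower in KO, where 17% of all tested genes stood. Their median log2 fold change was 0.04. The genes with the smallest p were the axon guidance ligand genes Sema3a and Sema3e, and Cyp2b10, a cytochrome P450. Sema3a measured 64.9 ± 6.43 CPM in the KO group against 54.4 ± 3.36 CPM in the WT group (SD over 5 mice per group; log2 fold change 0.27, SE 0.07, adjusted p 0.1384 by edgeR). Sema3e had a log2 fold change of 0.23 (SE 0.07, adjusted p 0.1709 by edgeR) and Cyp2b10 one of -0.18 (SE 0.07, adjusted p 0.2208 by edgeR). With the offsets 2 of the 22 had an unadjusted p under 0.05, where 12.5% of all tested genes did.

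Among 13 genes of factors and signals known to act on the type 1 cell fate, 1 was called by edgeR (2 by DESeq2 and 0 by limma-voom), Tead4, which encodes a DNA-binding partner of YAP and TAZ. Of all tested genes, edgeR called 0.0222%, DESeq2 1.92% and limma-voom 0.0111%. Tead4 rose in the KO group to 29 ± 2.37 CPM against 23.2 ± 2.43 CPM in the WT group (SD over 5 mice per group; log2 fold change 0.37, SE 0.05, adjusted p 0.03979 by edgeR). At an unadjusted p under 0.05 stood 6 of the 13, all higher in KO, where 8.92% of all tested genes stood, and 4 of 13 did with the GC and length offsets, again all higher (6.28% of all tested genes with the offsets). The list was chosen with earlier results of these data known, so these counts are a description only. The Tead4 call did not hold when any 1 of the 5 KO mice or of WT replicates 1, 2 and 5 was left out (adjusted p from 0.03115 to 0.1516 over the 10 such fits by edgeR, log2 fold change 0.35 to 0.41), and without KO replicate 5 the adjusted p was 0.1013 by edgeR. It was also lost with limma-voom (0.05232), in females alone (0.104) and with no sex covariate (0.2537), and was kept with the offsets (0.01098 by edgeR). The fit of females alone went by label and held KO replicate 5, the mouse with little Xist. The median log2 fold change of the 13 genes was 0.15, and 0.0852 with the offsets. Klf5, a transcription factor gene of alveolar epithelium, was called between the sexes. Males lay between 37.9 and 43.2 CPM and females between 31 and 36.3 CPM (a male minus female log2 fold change 0.35, SE 0.06, adjusted p 0.02023 by edgeR), and these ranges did not overlap. Between the sexes 0.583% of all tested genes were called, and 4.81% had ranges that did not overlap. The highest female value of Klf5 was that of KO replicate 5, the mouse with little Xist, so the gap depends on its label. Klf5 was called without KO replicate 5 (adjusted p 0.01903 by edgeR), but not with no genotype covariate (0.05784), nor without KO replicate 1 (0.154), KO replicate 2 (0.05028) or WT replicate 2 (0.08084).

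The RAGE list covered genes of ligands and partners of the receptor that Ager encodes, and did not hold Ager itself. Of 12 genes, 0 were called by edgeR and 1 by DESeq2, which called 1.92% of all tested genes. S100a6, which encodes a small calcium-binding protein, was the 1 gene at an unadjusted p under 0.05, where 17% of all tested genes stood. It measured 171 ± 11.9 CPM in the KO group against 213 ± 24.3 CPM in the WT group (SD over 5 mice per group; log2 fold change -0.35, SE 0.07, adjusted p 0.09105 by edgeR). Diaph1, whose product binds the inner part of RAGE, had a log2 fold change of 0.09 (adjusted p 0.3861 by edgeR) and the matrix protease gene Mmp9 one of 0.13 (adjusted p 0.3939 by edgeR).

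The type 2 cell list was set beside the type 1 genes because both cells line the alveolus. Of its 14 genes 0 were called by edgeR and 2 by DESeq2, which called 1.92% of all tested genes. In edgeR 7 had an unadjusted p under 0.05, all lower in KO, where 8.04% of all tested genes stood. With the GC and length offsets 3 of 14 did, all lower, where 6.21% of all tested genes stood. This list too was chosen with earlier results of these data known, so its counts are a description only. The smallest p were those of Napsa (log2 fold change -0.25, SE 0.05, adjusted p 0.1091 by edgeR), Sftpa1 (-0.23, SE 0.07, adjusted p 0.1582 by edgeR) and Lyz2 (-0.17, SE 0.06, adjusted p 0.2169 by edgeR), of which Lyz2 is also expressed by macrophages. The median log2 fold change was -0.12 for the type 2 list and -0.02 for the 9 type 1 genes, a difference that was not tested. The summed level of the 9 type 1 genes divided by that of the type 2 list was 0.202 ± 0.0092 in KO and 0.192 ± 0.0158 in WT mice (SD, n = 5 each), with ranges that overlapped.

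Several of the 9 genes are also expressed by other cells of a lung piece. Pdpn is made by lymphatic endothelium, mesothelium and some fibroblasts, Hopx by cardiac muscle, Aqp5 by gland cells and Emp2 by endothelium. Of all tested genes, 8.92% were higher and 8.04% lower in KO at an unadjusted p under 0.05. Of 6 lymphatic genes 0 were called (2 higher in KO at an unadjusted p under 0.05), and their summed level was 409.8 to 475 CPM in KO and 388 to 471 CPM in WT mice. Of 6 mesothelial genes 0 were called (1 lower), with sums of 161 to 221 and 172 to 243 CPM. Of 8 cardiac genes 0 were called (0 at an unadjusted p under 0.05), with sums of 713 to 1239.8 and 452 to 1216 CPM. Of 15 endothelial genes 0 were called (1 higher, 1 lower), with sums of 5076 to 5275 and 4429 to 5631 CPM. Of 10 fibroblast genes 0 were called (2 lower), with sums of 4147 to 4453 and 3823 to 4544 CPM. Of 9 gland and tracheal genes 4 were tested and 0 called (0 at an unadjusted p under 0.05), with sums of 270 to 430.1 and 278 to 374 CPM, and Bpifb2, Dcpp1 and Prol1 were at 0 in all mice. DESeq2 called 1 mesothelial gene and none of the others named here, beside 1.92% of all tested genes. Between the sexes, 1 fibroblast gene was called, Col14a1, a fibril-associated collagen gene that was lower in males (log2 fold change -0.35, SE 0.07, adjusted p 0.02898 by edgeR), a call that was lost without KO replicate 5 (0.05494), with no genotype covariate (0.06476) and in 7 more fits that each left out 1 mouse, and kept without KO replicate 4 or WT replicate 4. The KO and WT sums overlapped in each of these 6 lists. Without KO replicate 5, edgeR called 0 genes between the genotypes in each list of this report, the 13 factor and signal genes included. The part of these cells in the values of the 9 genes was not tested.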

How the data were processed

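RNA of 10 mice was measured, 5 KO and 5 WT. The authors deposited 1 table of estimated counts per gene, not scaled between samples. Per the labels, libraries were stranded mRNA libraries read as single reads of 50 bases. The submitters' processing notes name STAR 2.6.0, Salmon 0.9.1, FastQC and MultiQC and the build GRCm38 (mm10), with no roles. Annotation and use of strand are not given in the sources used here. Symbols, coordinates and lengths came from GENCODE M21 (GRCm38), which matched 47281 identifiers and left 52 unmatched.

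Estimated counts were rounded. The test was edgeR's quasi-likelihood test (edgeR 4.0.16, R 4.3.3; TMM, filterByExpr by genotype with minimum count 10 and minimum total 15, robust fit) on genotype and sex, with Benjamini-Hochberg adjustment over all 18024 genes. An adjusted p under 0.05 was called. A standard error is the absolute log2 fold change over the square root of F, and intervals use the total degrees of freedom. CPM are means ± SD over mice, and 3 counts equalled 0.103 to 0.143 CPM. Log2 CPM used a prior count of 2. Permutation tests of r used 100000 resamples. All tests were two-sided. Each mouse is a separate sample, and the labels name no batch.

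The members and gene lists were chosen with earlier results of these data known. Named genes are the 9 members, Bpifb1, called genes of each list or else up to 3 with the smallest p, and the nearest gene of each member. Xist and Hspa4l fall outside this rule and were named after their values were seen. Protein lengths planned for the members were not used here. The length and GC values per mouse were not planned. Lists not described in the report are in the closing section. Alternatives were DESeq2 size factors, no filter, a mean CPM of at least 1, DESeq2 1.42.0, limma-voom (limma 3.58.1), no robust dispersion, no sex or genotype covariate, females alone, an adjusted p under 0.1, leaving out each mouse, and, chosen after seeing the data, offsets for GC content and transcript length (lowess, span 0.3) correlations without KO replicate 5, and the GC box, CCAAT and TATAAA motifs.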

Additional observations from a re-analysis of the deposited data

Results flagged for a closer look

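Dixon's test for a mouse apart from its group was applied to 27 sets of CPM values, the 9 genes each in KO mice, WT mice and females, and chance alone would pick about 1.35 of them, while 2 were picked. Hopx in WT replicate 2, a male, was 765 CPM, far above the 649.5 to 675 CPM of its group. Emp2 in KO replicate 4, a female, was 1209 CPM, above the 1135 to 1147 CPM of its group. The KO value of Emp2 lay within the WT range of 1117 to 1263 CPM.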

How the results depend on the processing

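Between KO and WT, 0 of the 9 genes were called in each of 19 alternatives, and 0 at an adjusted p under 0.1. Ager, Aqp5, Hopx and Akap5 kept their direction in all 19, and Hopx, with an unadjusted p under 0.05 in 16, had adjusted p-values from 0.1344 to 0.5215. Directions reversed for Pdpn (0.06), Clic5 (0.00, to 2 decimals) and Gprc5a (0.01) with the GC and length offsets, and for Rtkn2 with no sex covariate (0.00). That of Emp2 reversed in females alone (0.02), a fit by label that held KO replicate 5. Leaving out 1 mouse moved Pdpn from -0.03 to 0.00 and Emp2 from -0.04 to 0.02. Between the sexes it moved Aqp5 from -0.06 to 0.12, Akap5 from -0.01 to 0.17 and Gprc5a from -0.12 to 0.03. The count of all genes called between KO and WT was 4. It became 57 at an adjusted p under 0.1, 60 with no filter on low counts, 346 by DESeq2 and 2 by limma-voom, and from 2 to 18 without single mice. Between the sexes it was 105, and became 351 at 0.1, 199 with no filter, 436 by DESeq2, 291 with the offsets and 41 with no genotype covariate, and from 0 to 195 without single mice. Of the 9 genes, 0 were called between the sexes with no genotype covariate, and from 0 to 1 without single mice. The cause was not tested. Rtkn2 kept its direction in 18 of 18 alternatives and its call in 14. No paired analysis was possible because the replicate numbers follow sample order and pair no mice. Depth did not limit the 9 genes, whose lowest count was 3064, and 5 mice per group with 1 KO male limit the precision.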

Other observations

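Relatives of the 9 genes were measured in the same libraries. Per kilobase of exon, the water channel gene Aqp1 of capillary endothelium stood at 298 CPM per kb, above Aqp5, while Aqp3, Aqp4 and Aqp9 stood at 0.627, 1.4 and 0.46 CPM per kb. Clic3 and Clic4 (142 and 140.3 CPM per kb) were near Clic5, and Pmp22 (176 CPM per kb) was above Emp2. Rtkn stood at 4.33 CPM per kb and Gprc5b and Gprc5c at 7.89 and 3.44 CPM per kb, all far below Rtkn2 and Gprc5a. Of 17 tested relatives, 0 were called between KO and WT by edgeR or DESeq2, and 6 had an unadjusted p under 0.05, 3 higher and 3 lower in KO. Of all tested genes 17% had such a p, 8.92% higher and 8.04% lower in KO. The smallest p were those of Rtkn (log2 fold change -0.23, SE 0.08, adjusted p 0.1933 by edgeR), Clic1 (-0.14, adjusted p 0.204 by edgeR) and Clic3 (-0.16, adjusted p 0.2298 by edgeR). With the GC and length offsets 1 of 17 had an unadjusted p under 0.05, where 12.5% of all tested genes did.

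Genes of the transitional state that type 2 cells pass through on the way to type 1 cells were not called either (0 of 12 by edgeR and 0 by DESeq2). At an unadjusted p under 0.05 stood 4 of 12, 3 lower and 1 higher in KO, where 8.04% of all tested genes were lower and 8.92% higher. Lgals3 measured 113 ± 3.61 CPM in the KO group against 129.8 ± 14.5 CPM in the WT group (SD over 5 mice per group; log2 fold change -0.22, SE 0.07, adjusted p 0.17 by edgeR). The tight junction gene Cldn4 (log2 fold change -0.31, adjusted p 0.2021 by edgeR) and the keratin gene Krt19 (-0.16, adjusted p 0.2444 by edgeR) followed. Of the remaining lists, 0 genes were called among 6 smooth muscle, 8 ciliated, 6 club cell, 8 macrophage and 9 lymphocyte genes. They had 1, 2, 0, 0 and 1 at an unadjusted p under 0.05, where 17% of all tested genes stood. By DESeq2 1 ciliated gene was called, where 1.92% of all tested genes were.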
